A study of Arabidopsis thaliana with 6 samples.

Results

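The genes BBX28 to BBX32 of Arabidopsis thaliana encode small zinc-finger proteins with a lone B-box, and only these are called the single B-box genes here. They were taken from the deposited tables by locus: BBX28 (AT4G27310), BBX29 (AT5G54470), BBX30 (AT4G15248), BBX31 (AT3G21890) and BBX32 (AT3G21150), 5 of 32678 listed genes. All 5 were found, and all 5 passed the filter on low values. Polyadenylated transcripts of whole seedlings were sequenced after 5 days in white light. The control was Col-0, the wild-type accession, with 3 libraries. The other group was csu6-2, a mutant in COP1 SUPPRESSOR 6, also with 3 libraries. The sources used here name neither the mutated locus nor the kind of allele, and the targeted gene was not examined. The sources do not say whether replicates came from separate cultures, so p-values measure the spread between these libraries only.

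B-box proteins bind other transcription factors more than they act alone, and several tune HY5, the bZIP factor that drives seedling development in light. COP1, an E3 ubiquitin ligase, removes HY5 and several B-box proteins in darkness. BBX28 binds HY5 and lowers its hold on DNA, and BBX29 is its closest relative. BBX30 and BBX31 favour hypocotyl growth, HY5 binds and represses their promoters, and as microproteins both also bind the flowering activator CONSTANS and join it to the corepressor TOPLESS. BBX32 opposes light-driven development through BBX21 and HY5, and it also binds EMF1, a repressor of flowering.

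In the RefSeq TAIR10.1 annotation, BBX28 lies on chromosome 4 at 13675537 to 13677055 on the plus strand, and BBX30 on the same chromosome at 8708841 to 8709482, plus strand. BBX29 lies on chromosome 5 at 22114304 to 22115539, BBX31 on chromosome 3 at 7708833 to 7709933, and BBX32 on chromosome 3 at 7412445 to 7413727, these 3 on the minus strand. The coding sequences hold 223 codons before the stop in BBX28, 215 in BBX29, 117 in BBX30, 121 in BBX31 and 225 in BBX32. Coding sequences were 78.0% identical between BBX28 and BBX29 and 73.5% between BBX30 and BBX31, over aligned bases, against 56.3 to 68.0% for the other 8 pairs. The longest exact run shared by the exons of any pair was 17 bases, between BBX28 and BBX29. The 90 coding bases in which each pair was most alike are shown because they let a reader see how far reads can tell the copies apart. Capitals mark the bases that differ, 9 between BBX28 and BBX29 and 18 between BBX30 and BBX31.
BBX28: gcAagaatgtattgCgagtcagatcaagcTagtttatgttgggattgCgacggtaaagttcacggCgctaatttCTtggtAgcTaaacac
BBX29: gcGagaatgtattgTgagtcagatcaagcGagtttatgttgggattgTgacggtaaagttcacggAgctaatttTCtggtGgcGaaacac
BBX30: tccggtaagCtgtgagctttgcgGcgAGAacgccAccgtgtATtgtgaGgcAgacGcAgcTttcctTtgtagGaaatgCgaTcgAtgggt
BBX31: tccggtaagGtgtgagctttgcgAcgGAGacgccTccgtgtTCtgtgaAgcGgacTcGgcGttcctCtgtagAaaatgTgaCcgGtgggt

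The 250 bases before each annotated gene start were searched on both strands for the G-box CACGTG, which HY5 and PIF factors bind, the PIF-bound variant CACATG, the evening element AAATATCT and the site AAAAATCT bound by the clock factor CCA1. The matches did not overlap each other. Both windows that held a match are shown, with the matches in capitals. BBX28 held AAAAATCT at 96 bases before the start and its reverse complement at 47 bases. This motif was present, in any number of copies, in 6.69% of the windows of 27443 protein-coding genes. BBX30 held a G-box at 72 bases before the start, a motif present in 6.49% of these windows. The windows of BBX29, BBX31 and BBX32 held none of the 4 motifs, which says only that these letters are not there. The BBX32 window overlaps a neighbouring gene, AT3G21160. CACATG occurred in 11.1% and AAATATCT in 4.79% of all windows.
BBX28, chr4:13675287-13675536, plus strand: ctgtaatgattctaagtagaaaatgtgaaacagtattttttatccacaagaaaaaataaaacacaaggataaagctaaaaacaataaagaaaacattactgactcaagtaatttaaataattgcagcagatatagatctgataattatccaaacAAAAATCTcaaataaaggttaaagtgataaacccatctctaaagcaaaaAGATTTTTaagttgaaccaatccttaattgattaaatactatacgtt
BBX30, chr4:8708591-8708840, plus strand: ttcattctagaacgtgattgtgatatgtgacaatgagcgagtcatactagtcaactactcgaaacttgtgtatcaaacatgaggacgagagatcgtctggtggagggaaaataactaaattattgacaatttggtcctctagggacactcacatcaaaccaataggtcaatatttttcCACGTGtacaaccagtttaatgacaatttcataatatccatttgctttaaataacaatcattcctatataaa

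Levels are RPKM, reads per kilobase of gene length and per mega (M) of reads in the library. From the steps between the lowest values, depth was put at 27.6 to 43.5 M reads assigned to genes in each library, if the smallest step is a single read. Only a set range of steps was searched, RefSeq exon lengths were used, and 65.3 to 70.9% of low values lay near a whole step. At these depths BBX29 rested on about 104 to 188 reads per library, BBX30 on 161 to 303 and BBX28 on 491 to 1706. Clock genes differed within Col-0. CCA1, a morning repressor of the clock, stood at 24.88, 14.72 and 12.64 RPKM in Col-0 replicates 1, 2 and 3, against 22.64 to 28.34 RPKM in csu6-2, and its partner LHY at 25.46, 16.51 and 13.74 RPKM, against 22.21 to 26.35 RPKM. Col-0 replicate 1 thus lay within the csu6-2 range for both genes and the other Col-0 libraries below it. Among the other clock genes listed, Col-0 replicate 1 was the lowest Col-0 library for PRR5, TOC1, LUX, ELF4, GI and PRR9, not PRR7. PRR5 stood at 8.4, 11.42 and 12.42 RPKM in Col-0 replicates 1, 2 and 3, and TOC1 at 21.81, 27 and 25.29 RPKM. LUX stood at 19.64, 22.62 and 26.18 RPKM, ELF4 at 78.61, 86.21 and 97.83 RPKM, and GI at 4.31, 4.78 and 5.67 RPKM. The sources used here state no hour of harvest, and its part in the results was not tested. The 5 shoot markers, all detected, summed to 14517 to 16758 RPKM in Col-0 and 18616 to 20303 RPKM in csu6-2. The genotypes did not overlap in this sum, but its members differed in sign, with log2 changes of 0.20 for RBCS1A, 0.86 for LHCB1.1 and 1.37 for LHCB2.1, and of -0.22 for CA1 and -0.32 for GLK1. The 5 root markers, also all detected, summed to 1263 to 1338.1 and 1016 to 1176.4 RPKM without overlap, a sum made up mostly of PYK10 (1208.5 to 1292.92 and 965.66 to 1100.78 RPKM). The other 4 root markers overlapped between genotypes, with mean levels in csu6-2 1.07 to 1.18 times those of Col-0. The 5 seed storage markers summed to at most 3.04 RPKM in any library, and the albumin gene SESA1 was listed at 0 in 5 of 6 libraries. The part of organ make-up in the results was not tested. In bulk samples, fewer cells of a type and less RNA per cell cannot be told apart.

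Setting csu6-2 against Col-0 addresses which transcripts differ in a mutant of CSU6 (COP1 SUPPRESSOR 6). None of the 5 single B-box genes passed the test at an adjusted p of 0.05 (limma on log2(RPKM + 1), adjusted over 18885 tested genes), where 12.9% of all tested genes did, 3.55% higher and 9.38% lower in csu6-2. At an unadjusted p under 0.05 there was 1 of 5, BBX28, against 27.9% of all tested genes. BBX28 had a mean level in the mutant 2.02 times that of Col-0, BBX32 the lowest log2 change of the 5, and BBX29, BBX30 and BBX31 lay between -0.16 and 0.05 on the log2 scale. The median log2 change was -0.097 over the 5 genes and -0.07 over all tested genes. With all 6 libraries, 671 tested genes were higher and 1771 lower in csu6-2, and with median-of-ratios scaling of the libraries 1050 were higher and 1128 lower, so the split depends on scaling.

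**Figure D1:**
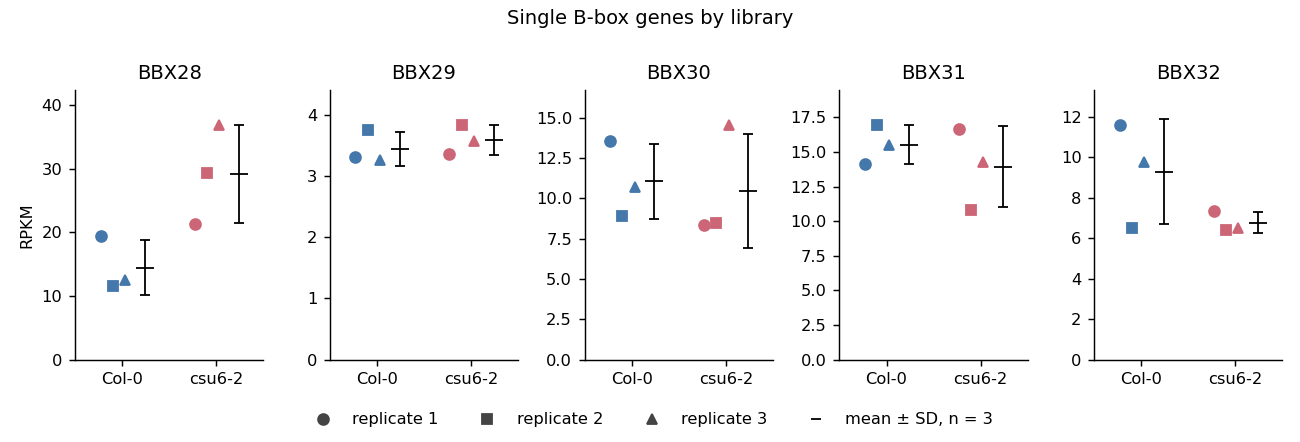
RPKM of each single B-box gene in each library, with 3 Col-0 libraries in blue, 3 csu6-2 libraries in red, marker shape for replicate number and black bars for the mean ± SD. BBX28 lies at 11.54 to 19.34 RPKM in Col-0 and 21.32 to 36.83 RPKM in csu6-2, while the genotypes overlap for the other 4 genes.

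BBX28, which restrains HY5, stood at 19.34, 11.54 and 12.45 RPKM in Col-0 replicates 1, 2 and 3 and at 21.32, 29.26 and 36.83 RPKM in csu6-2 replicates 1, 2 and 3. Every mutant library lay above every wild-type library, although csu6-2 replicate 1 and Col-0 replicate 1 were close. A separation in this direction was seen for 9.04% of all tested genes, the opposite separation, shown by 0 of the 5 genes, for 23%, and either for 32%. The means were 14.4 ± 4.27 RPKM in Col-0 and 29.1 ± 7.76 RPKM in the mutant (SD, n = 3 each), a ratio of 2.02. The log2 change was 0.97 (SE 0.27, 95% interval 0.27 to 1.66), and it did not pass (adjusted p = 0.0878). This log2 change was higher than that of 99.6% of tested genes. The spread within genotypes was also wide, with a residual SD of 0.38 on the log2 scale, against a median of 0.115 over all tested genes and above that of 99.1% of genes of like level (a mean within a factor of 2).

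The call for BBX28 turned on single libraries. Without Col-0 replicate 1 the log2 change was 1.18 and passed (adjusted p = 0.017), and without csu6-2 replicate 1 it was 1.17 and passed (adjusted p = 0.0278). It lay between 0.79 and 0.95 and did not pass on leaving out Col-0 replicates 2 and 3 in turn (adjusted p = 0.243 and 0.232) or csu6-2 replicates 2 and 3 in turn (0.194 and 0.186). It also passed when limma's trend and robust options were off (adjusted p = 0.029).

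**Figure D2:**
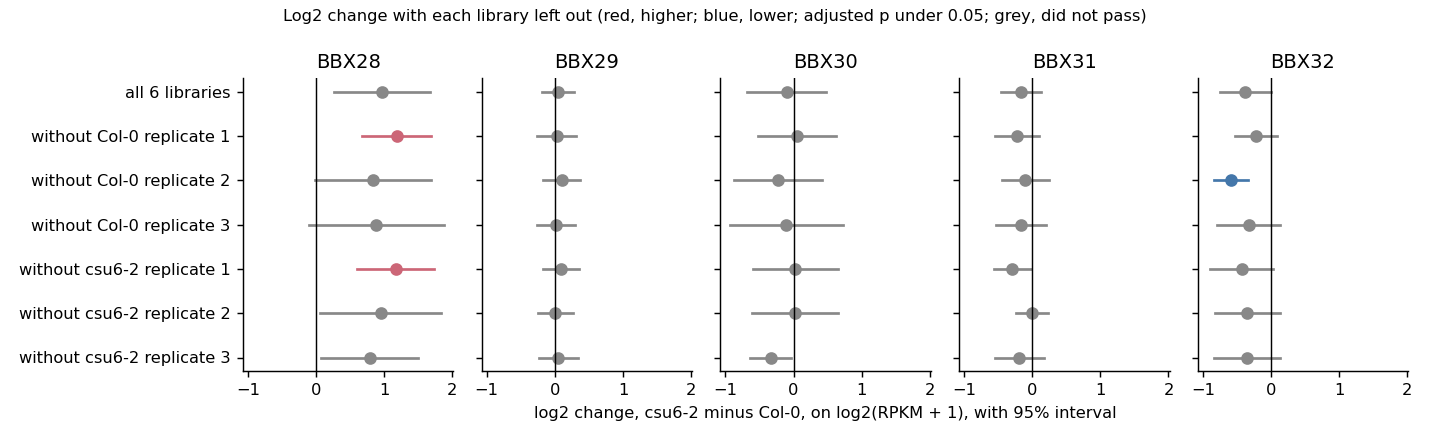
Log2 change of each gene, csu6-2 minus Col-0 on log2(RPKM + 1), with its 95% interval, from all 6 libraries and with each library left out; coloured points passed at an adjusted p of 0.05. BBX28 passed without Col-0 replicate 1 or csu6-2 replicate 1 and BBX32 without Col-0 replicate 2, and all other points did not pass.

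Ratios between genes of the same library do not depend on how libraries are scaled. BBX28 was 1.43, 1.29 and 1.16 times the level of BBX30 in Col-0 replicates 1, 2 and 3 and 2.55, 3.46 and 2.53 times in csu6-2. Relative to BBX32 it was 1.67, 1.77 and 1.27 times in Col-0 and 2.9, 4.56 and 5.64 times in csu6-2. Relative to BBX29 the ratio was 3.08 to 5.86 in Col-0 and 6.36 to 10.32 in csu6-2. In these 3 ratios the genotypes did not overlap, which gave p = 0.1 each in a two-sided exact permutation test over libraries, the smallest that 3 against 3 allows (0.133 adjusted over the 4 ratios, which were chosen after the values were seen). All 4 ratios share BBX28, whose own RPKM did not overlap between genotypes, so they are not separate results. Relative to BBX31 the ratio was 0.681 to 1.37 in Col-0 and 1.28 to 2.7 in csu6-2, and the genotypes overlapped (p = 0.2, exact permutation test). BBX28 made up 26.5 ± 4.1% of the summed RPKM of the 5 genes in Col-0 and 45.2 ± 6.84% in the mutant (SD, n = 3 each). The summed level itself overlapped, at 47.66 to 61.89 RPKM in Col-0 and 57.03 to 75.79 RPKM in csu6-2.

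**Figure D3:**
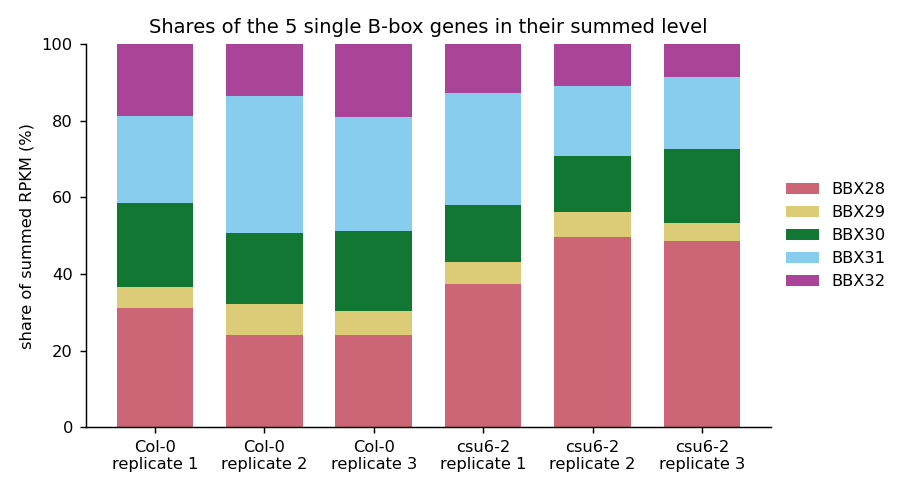
Share of each single B-box gene in the summed RPKM of the 5 genes, in percent, by library. BBX28 takes 24.1 to 31.2% in Col-0 and 37.4 to 49.8% in csu6-2, and BBX32 13.7 to 18.9% and 8.62 to 12.9%. A share also falls when another of the 5 genes rises. In RPKM BBX32 overlapped between the genotypes, at 6.51 to 11.6 in Col-0 and 6.42 to 7.35 in csu6-2.

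BBX29, the closest relative of BBX28, was the lowest and steadiest of the 5. It stood at 3.3, 3.75 and 3.26 RPKM in Col-0 and 3.35, 3.83 and 3.57 RPKM in csu6-2, so the genotypes overlapped almost fully. The log2 change was 0.05 (SE 0.11, adjusted p = 0.824), with a 95% interval of -0.19 to 0.28. Its residual SD of 0.0815 was below the median of all tested genes. No test of the difference between the log2 changes of BBX28 and BBX29 was run beyond their ratio.

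BBX30, of the microprotein pair, stood at 13.53, 8.91 and 10.72 RPKM in Col-0 and 8.37, 8.47 and 14.55 RPKM in csu6-2. The mutant libraries held both the lowest and the highest value. Means were 11.1 ± 2.33 and 10.5 ± 3.54 RPKM (SD, n = 3 each), and the log2 change of -0.1 did not pass (95% interval -0.68 to 0.48, adjusted p = 0.839). Its direction depended on single libraries: it was 0.05 without Col-0 replicate 1 (adjusted p = 0.933), 0.03 and 0.02 on leaving out csu6-2 replicates 1 and 2 in turn (0.961 and 0.976), and -0.34 without csu6-2 replicate 3 (0.175). The residual SD was 0.35, above that of 98.9% of genes of like level. BBX9, a CONSTANS-like gene that lies 284 bases beyond BBX30 on the other strand, was listed at 0 in all 6 libraries.

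BBX31, the other microprotein gene, stood at 14.12, 16.95 and 15.48 RPKM in Col-0 and 16.64, 10.82 and 14.31 RPKM in csu6-2. Only csu6-2 replicate 2 lay below the Col-0 range. The log2 change was -0.16 (SE 0.13, 95% interval -0.46 to 0.13, adjusted p = 0.478), and without csu6-2 replicate 2 it was 0.00 to 2 decimals (adjusted p = 0.988). The libraries ranked differently for BBX30 and BBX31, since csu6-2 replicate 1 was the lowest library for BBX30 and the second highest for BBX31. BBX10, which lies 486 bases from BBX31 on the opposite strand, was listed at 0 in Col-0 and at 0.06 to 0.15 RPKM in csu6-2, too low to be tested.

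BBX32, which acts against HY5 through BBX21, stood at 11.6, 6.51 and 9.79 RPKM in Col-0 and 7.35, 6.42 and 6.53 RPKM in csu6-2. The mutant libraries were close to each other and near the lowest wild-type library, Col-0 replicate 2. Means were 9.3 ± 2.58 and 6.77 ± 0.508 RPKM (SD, n = 3 each), and the log2 change of -0.38 did not pass (SE 0.17, 95% interval -0.75 to 7.14e-05, adjusted p = 0.179). Without Col-0 replicate 2 it was -0.59 and passed (adjusted p = 0.00994), and in the other 5 fits with a library left out it ranged from -0.43 to -0.21 (adjusted p = 0.2 to 0.388). It also passed with the replicate number as a block (adjusted p = 0.0486). The gene overlaps its neighbour AT3G21140 by 13 bases at its end, and how reads that reach into both genes were counted is not known.

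The order of levels differed between the genotypes. In Col-0 the order was BBX31 (15.5 ± 1.42 RPKM), BBX28, BBX30, BBX32 and BBX29 (3.44 ± 0.272 RPKM), and neighbours in that order overlapped in their range over 3 libraries, except that BBX29 lay below all others. In csu6-2 the order was BBX28, BBX31 (13.9 ± 2.93 RPKM), BBX30, BBX32 and BBX29 (3.58 ± 0.24 RPKM), and the only neighbours that overlapped were BBX31 and BBX30. Over all libraries the mean level ranked above 70.5% of tested genes for BBX28, 59.1% for BBX31, 49.1% for BBX30, 40% for BBX32 and 18.9% for BBX29. Levels of different genes depend on gene lengths that the sources do not give.

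Likeness was measured as the root mean square difference between log2(RPKM + 1) profiles over the 6 libraries, each centred on its own mean, against 13581 protein-coding genes. The difference between genotypes is part of this measure, so genes with a like rise come out near each other. The profiles nearest to BBX28 belonged to LHCB4.2, a minor antenna protein of photosystem II (0.0959), LHCA4, an antenna protein of photosystem I (0.129), and AT1G23390, a Kelch repeat F-box gene (0.129). These 3 genes were all higher in csu6-2 (adjusted p = 0.0282, 0.00813 and 0.00683, limma), and likeness beyond this rise was not tested. LHCB4.2 stood at 899.88, 584.74 and 608.89 RPKM in Col-0 and at 1067.21, 1352.1 and 1468.39 RPKM in csu6-2. It shared with BBX28 a Col-0 replicate 1 well above replicates 2 and 3. The same difference from BBX28 was 0.157 for PIF5 and 0.191 for PIF4, growth-promoting helix-loop-helix factors, and 0.385 to 0.68 for the other 5 PIF genes. Of the clock genes CCA1 lay at 0.273, PRR9 at 0.276, PRR7 at 0.341, LHY at 0.345, GI at 0.411 and the other 4 at 0.619 to 0.738. For comparison BBX29, with a log2 change of 0.05, lay at 0.559. Only 3 other B-box genes, all with a positive log2 change, were measured: BBX3 lay at 0.242, BBX24 at 0.279 and BBX16 at 0.346. PIF4 stood at 15.04 to 19.64 RPKM in Col-0 and 29.8 to 45.03 RPKM in csu6-2, and PIF5 at 12.72 to 20.3 and 25.4 to 31.63 RPKM.

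**Figure D4:**
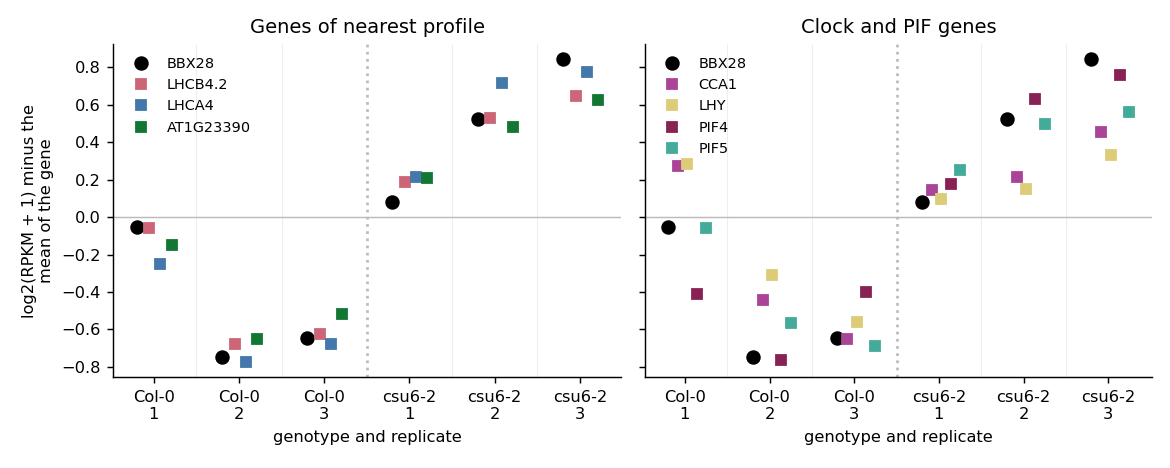
Log2(RPKM + 1) minus the mean of each gene, by genotype and replicate, for BBX28 (black) with the 3 genes of nearest profile (left) and with CCA1, LHY, PIF4 and PIF5 (right). BBX28, LHCB4.2, LHCA4, AT1G23390, CCA1, LHY and PIF5 all have Col-0 replicate 1 above the other Col-0 libraries, and PIF4 does not.

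The other single B-box genes had other neighbours. Nearest to BBX31 were AT2G41750, a DTW domain gene (0.0531), AT1G68850, a peroxidase gene (0.0577), and SQP1 (0.0585). Nearest to BBX32 were AT1G68500, uncharacterized (0.118), AT3G26770, an oxidoreductase-like gene (0.12), and LBD41, a LOB domain gene (0.13). Nearest to BBX30 were AT3G03870 (0.135), the Yippee family gene AT4G27745 (0.139) and AT5G44550 (0.142). No gene was named for BBX29, whose log2 values spanned 0.181, below the set span of 0.5.

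Among the other 27 B-box genes, most of which have a second B-box, a CCT domain or both, 22 were tested. Of these, 3 were higher, 2 lower and 17 did not pass, where 3.55% of all tested genes were higher and 9.38% lower, and the median log2 change was 0.04. On leaving out Col-0 replicate 1, 6 were higher, and 1 was on leaving out replicate 2 or 3 of either genotype. BBX24, which opposes HY5, rose in csu6-2, from a mean of 69.2 to 102.04 RPKM (log2 change 0.55, adjusted p = 0.00972) and passed with any library left out. Its adjusted p was close to 0.05 without Col-0 replicate 2 (0.0498) or csu6-2 replicate 2 (0.0499) and with the replicate block (0.0496). BBX6 (0.58) and BBX27 (0.44) rose and BBX7 (-0.46) and BBX13 (-0.37) fell, with adjusted p = 0.037, 0.0307, 0.0102 and 0.0284. BBX6 lost its call on leaving out Col-0 replicates 2 and 3 in turn (adjusted p = 0.133 and 0.127) or csu6-2 replicates 2 and 3 (0.118 and 0.0672). BBX13 lost its call on the same libraries (0.1 and 0.0897, then 0.115 and 0.0542) and under median-of-ratios scaling (0.061). BBX27 lost its call on leaving out Col-0 replicates 2 and 3 (0.0697 and 0.0701) or any csu6-2 library (0.0637, 0.121 and 0.0627), and BBX7 on leaving out csu6-2 replicate 2 (0.0515). The log2 change of BBX28 was larger than that of each of these 22 genes, a difference that was not tested, the nearest being BBX3, a CONSTANS-like gene, at 0.65 (adjusted p = 0.212). BBX3 and BBX16, at 0.62 (adjusted p = 0.205), had wide intervals like BBX28 and did not pass.

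**Figure D5:**
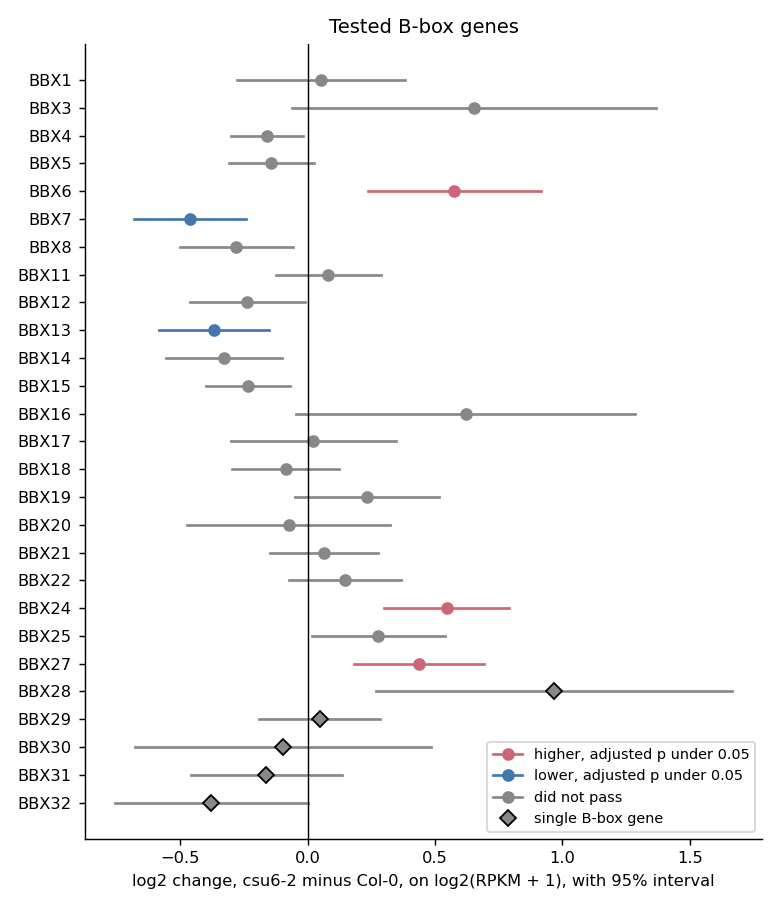
Log2 change of each tested B-box gene, csu6-2 minus Col-0 on log2(RPKM + 1), with its 95% interval. Diamonds are BBX28 to BBX32 and colours mark an adjusted p under 0.05. BBX28 has the highest log2 change, 0.97, with an interval of 0.27 to 1.66, and the 5 coloured genes are BBX6, BBX7, BBX13, BBX24 and BBX27.

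HY5 itself stood at 31.77 to 33.97 RPKM in Col-0 and 31.69 to 35.78 RPKM in csu6-2 (log2 change 0.07, adjusted p = 0.618). COP1 did not pass either (-0.08, adjusted p = 0.529). Among the 8 genes of HY5 and its repressors, 1 was higher and 1 lower, with a median log2 change of -0.1, beside 3.55% higher and 9.38% lower over all tested genes. SPA2, a partner of COP1, rose in csu6-2, from a mean of 6.85 to 9.53 RPKM (0.42, adjusted p = 0.00989) and passed with any library left out. HYH, the close relative of HY5, fell from 53.6 to 43.8 RPKM (-0.28, adjusted p = 0.0285). HYH lost its call under median-of-ratios scaling (adjusted p = 0.115), on leaving out Col-0 replicates 1 and 2 in turn (0.107 and 0.0576) and on leaving out any csu6-2 library (0.0752, 0.0665 and 0.0665). Of 11 genes that HY5 activates, 10 were tested, with 3 higher, against 3.55% of all tested genes, 0 lower and a median log2 change of 0.22. The untested gene, F3H, was listed at 0 to 0.07 RPKM, but it overlaps an annotated gene on the opposite strand and how shared reads were counted is not known, so this value is not read as its expression. The 3 higher genes were ELIP1 and ELIP2, induced early in light, which passed with any library left out, and MYB12, a flavonol regulator, which lost its call on leaving out any Col-0 library (adjusted p = 0.13, 0.091 and 0.0503) and csu6-2 replicates 1 and 3 (0.0932 and 0.145).

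Among the flowering partners of the single B-box proteins, CONSTANS stood at 0.99 to 1.83 RPKM in Col-0 and 1.26 to 1.68 RPKM in csu6-2 (log2 change 0.05, adjusted p = 0.86). Its target FT, the florigen gene, stood at 2.28 to 3.1 and 2.53 to 4.71 RPKM (0.26, adjusted p = 0.342). Of 10 such genes, 9 were tested, 0 were higher and 1 lower (9.38% of all tested genes were lower), the TOPLESS relative TPR3 (-0.37, adjusted p = 0.0315). TPR3 lost its call under median-of-ratios scaling (adjusted p = 0.0553), on leaving out any Col-0 library (0.0597, 0.0736 and 0.0968) and on leaving out csu6-2 replicates 2 and 3 (0.102 and 0.0812).

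Of the 7 PIF genes 3 were higher (PIF4, PIF5 and PIF7) and 0 lower, against 3.55% and 9.38% of all tested genes, and PIF4 alone was higher on leaving out Col-0 replicate 2 or csu6-2 replicate 3. Of 9 clock phase genes 3 were higher and 1 lower, beside the same shares, with CCA1 (0.54, adjusted p = 0.247) and LHY (0.39, adjusted p = 0.308) not passing. PRR7 (1.44, adjusted p = 0.000423) and PRR9 (1.06, adjusted p = 0.000588), morning repressors that CCA1 and LHY regulate, rose, and GI rose by 0.47 on the log2 scale (adjusted p = 0.0166). GI lost its call on leaving out Col-0 replicates 1 and 2 (adjusted p = 0.0549 and 0.0595) and csu6-2 replicates 2 and 3 (0.0523 and 0.0755). The lower gene, ELF4 (-0.27, adjusted p = 0.0449), an evening gene of the clock, lost its call under median-of-ratios scaling (0.188) and on leaving out any 1 library (0.0842 to 0.159) other than Col-0 replicate 1. For PRR7 Col-0 replicate 1, at 14.46 RPKM, lay between replicates 2 and 3, at 13.95 and 16.32 RPKM. For PRR9 it was the lowest Col-0 library, at 3.05 RPKM against 3.41 and 3.36 RPKM. Of the 5 shoot markers 1 was lower (GLK1), of 4 tested root markers 1 was lower (PYK10), and 0 seed storage markers were tested. Median-of-ratios scaling gave 1 higher and 0 lower shoot markers and 0 lower root markers. With a library left out, 0 to 2 shoot markers were higher and 0 to 2 lower, and 1 root marker was lower on leaving out csu6-2 replicate 3 and 0 on leaving out any other library.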

How the data were processed

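Each library has a table of gene identifiers and RPKM values, which the authors deposited to 2 decimals. Tools named without a role, per the submitters' processing notes, are HISAT2 and edgeR 3.0.8, and the build is TAIR10. The sources used here do not state the counting program, gene lengths, annotation, strand setting or filters. The unit was read from the values. Members and lists were chosen with earlier results of these data known.

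Genes with at least 1 RPKM in 3 or more libraries (18885 of 32678) were kept. Log2(RPKM + 1) of csu6-2 minus Col-0 was tested with limma 3.58.1 in R 4.3.3 (eBayes with trend and robust), two-sided, with Benjamini-Hochberg adjustment over all tested genes and a threshold of 0.05. The scale understates changes of low genes, and SDs are of RPKM. The fit was tested on simulated data. Since RPKM is relative to all reads of a library, abundant transcripts that rise lower the values of other genes. Depth came from low-value steps. If the smallest step is a read pair, the depth is in pairs.

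Named genes were the members, B-box, HY5, PIF, clock and flowering genes by a set rule, and the 3 nearest profiles of each member whose log2 values spanned at least 0.5, among genes with a mean of at least 5 RPKM. BBX3, BBX16, PIF7, ELF4, PRR5, TOC1, LUX, the marker genes, ELIP1, ELIP2, MYB12, TPR3, SESA1 and F3H were named after their values were seen. Identifiers were matched by locus tag to RefSeq TAIR10.1. Coding sequences were aligned with Biopython 1.88. Alternatives changed scaling, pseudocount, filter, variance model, replicate block and the libraries included.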

Additional observations from a re-analysis of the deposited data

How the results depend on the processing

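Of the 13 alternatives, BBX29, BBX30 and BBX31 passed in 0 (BBX29 could be fitted in 12, since it falls under a minimum of 5 RPKM), BBX28 in 3 and BBX32 in 2. BBX28 ranged from 0.79 to 1.18 on the log2 scale with a library left out and passed without limma's trend and robust options (0.97, adjusted p = 0.029). Under the alternatives in which it did not pass, its adjusted p ranged from 0.0559 to 0.253. BBX32 ranged from -0.59 to -0.21 with a library left out. BBX30 ranged from -0.34 to 0.05 with a library left out, with the sign changed on leaving out Col-0 replicate 1 (0.047) and on leaving out replicates 1 and 2 of csu6-2 in turn (0.028 and 0.02). Over all genes, median-of-ratios scaling gave 1050 higher and 1128 lower genes, and leaving out a library 389 to 674 higher and 859 to 1790 lower, with the lowest counts without csu6-2 replicate 3 and Col-0 replicate 2. Without the filter on low values BBX6, BBX13, BBX27, HYH, MYB12, TPR3, PIF7 and ELF4 lost their calls (adjusted p = 0.0503 to 0.0873), and without trend and robust BBX13, BBX27, HYH, PIF7 and ELF4 did (0.052 to 0.101). The cause of these changes was not tested. With the replicate block, BBX32 passed (-0.38, adjusted p = 0.0486), BBX28 had adjusted p = 0.253, BBX6 and PIF5 lost their calls (0.104 and 0.0656), and 813 genes were higher and 2156 lower. Deviations of same-numbered libraries correlated at 0.204, 0.0512 and 0.221 across genes for replicates 1, 2 and 3. Those of differently numbered libraries correlated at -0.304 to 0.121. Replicate 2 of each genotype correlated best with another number (0.121 for Col-0 and 0.101 for csu6-2), and the other libraries with their own. Whether equal numbers mark pairs was not tested, and the main fit does not pair them. RPKM keeps no counts, so counting error is not separated from other spread.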
